A study of Mus musculus with 10 samples.

Results

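The genes described here are 40 markers of the cells of blood vessels: 29 of endothelial cells, which line the vessel, and 11 of pericytes and vascular smooth muscle, which wrap around it. They were taken from a named list, chosen with earlier results of these data known. Each gene was followed through its brightest probe set on Affymetrix Mouse430_2 arrays. A probe set that names a single gene was found for 39 of the 40, among 18193 such genes on the array. The exception was Ly6c1, whose probe set also names Ly6c2. Of the 39 genes, 26 were bright enough to be tested together with all other genes (11405 genes tested), and 13 fell below the filter on dim genes.

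The arrays were hybridised with RNA from mouse cerebellar granule cell precursors in primary culture, prepared from pups at postnatal days 5 to 7 as the sample labels give it (the series design gives postnatal day 7). There were 4 groups: Bmi1-/- (knockout) cultures given sonic hedgehog (Shh) for 24 hours (2 arrays, replicates 8 and 10), untreated Bmi1-/- cultures (3 arrays, replicates 2, 4 and 6), wild-type cultures given Shh for 24 hours (2 arrays, replicates 7 and 9) and untreated wild-type cultures (3 arrays, replicates 1, 3 and 5). All cultures grew in medium with 10% fetal calf serum and 20 mM KCl, and the Shh concentration is labelled as 3 mg/ml. The submitters call the cultures biological replicates, but the number of animals per culture and the deleted part of Bmi1 are not given in the sources used here. The p-values therefore measure the spread between these arrays, with dim signals raised to a floor. A culture time of 24 hours is recorded for all cultures, treated or not. Whether the 24 hours of Shh fell within it is not stated in the labels. Nor is it stated whether the untreated cultures had the same total time in vitro as the Shh-treated ones. By the culture protocol, the meninges and vessels were taken off the cerebella before the tissue was dissociated. Wild-type replicate 3 is untreated by its title and characteristics and was used so, although a free-text note on it speaks of Shh.

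Endothelial cells sense growth factors through receptors for vascular endothelial growth factor (VEGF), angiopoietins and apelin. In the brain they are sealed by tight junctions and carry nutrient and efflux transporters, which together make up the blood-brain barrier. Pericytes sit in the basement membrane of capillaries, are recruited by platelet-derived growth factor B from the endothelium acting on the receptor Pdgfrb, and help to keep the barrier tight. Granule cell precursors, the cells the cultures were made for, are neuronal progenitors and are not usually counted among the sources of these markers, although Pltp, Itm2a, Myl9 and Acta2 are also made outside vessels. Bmi1 is a component of the Polycomb repressive complex PRC1.

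All arrays were scaled to a trimmed mean of 500, and their median signals were 66.6 to 72.1 on the Shh-treated arrays against 84.4 to 90.9 on the untreated ones. The 2 probe sets of Bmi1 overlapped between the genotypes in untreated cultures, and only the brighter one was apart with Shh. The brighter one read 3416 to 3432 in Shh-treated and 3416 to 3904 in untreated knockout cultures, against 4165 to 4515 in Shh-treated and 3673 to 4253 in untreated wild-type cultures. Since the deleted part is not given, these probe sets do not check the genotype labels. The labelled cell type was checked with 8 markers of granule precursors, none of which lay at the floor on every array of a group. Atoh1, the transcription factor that defines them, read 1431 to 2256 over the 10 arrays, and none of the 8 passed the test for Shh in either genotype (median log2 difference -0.12 in knockout and -0.17 in wild type).

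Nearly all tested vascular markers were lower in Shh-treated than in untreated cultures, in both genotypes. In the knockout, 24 of the 26 tested markers fell, 1 rose (Sox18) and 1 did not pass the test (Acta2), where 28% of all tested genes passed, 17% lower and 11% higher. In wild type the counts were again 24 lower, 1 higher and 1 not called, and the same genes made up each count, where 33.8% of all tested genes passed, 19.8% lower and 14% higher. The threshold was an adjusted p of 0.05 (limma, Benjamini-Hochberg over all tested genes), and differences are log2 of Shh-treated minus untreated signal. The median difference over the tested markers was -3.16 in the knockout and -2.91 in wild type, beside medians over all tested genes of -0.01 in both. In the knockout, 24 of the 26 markers had both Shh-treated arrays below all 3 untreated ones (29.5% of all tested genes), and in wild type also 24 (31.2%). Because a marker that is dim with Shh could pass the filter only on its untreated signal, these counts describe the tested markers. Over all 39 markers the medians were -2.94 in the knockout and -2.77 in wild type, and 34 and 35 of them lay below 0. In these bulk cultures, fewer vascular cells and less RNA per vascular cell cannot be told apart.

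**Figure D1:**
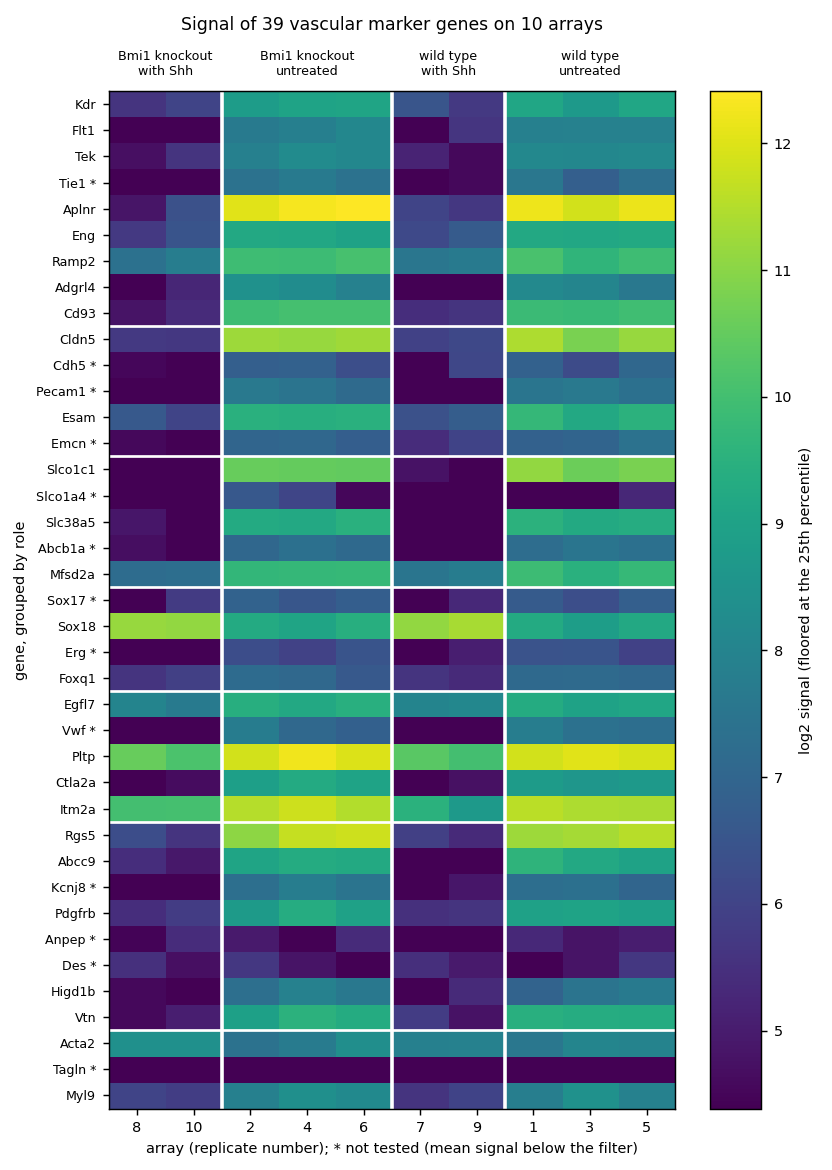
Heat map of log2 signal for the 39 markers with a probe set of their own (rows, grouped by role; an asterisk marks the 13 not tested) on the 10 arrays (columns, by group and replicate number); dark colours are low signal. Nearly every row is darker on the 4 Shh-treated arrays than on the 6 untreated arrays of both genotypes, with Sox18 the reverse and Acta2, Des and Tagln showing no such split. Anpep is darker with Shh only in wild type, and Slco1a4 only in the knockout.

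Signals were floored at 20.9, the 25th percentile over the whole table. A fold is therefore a lower bound, written "at least", where an array of the dimmer group lay there. The floor also removes spread between arrays that lie at it. The SE and adjusted p of such markers therefore rest on less spread than their signals had. For Slco1c1, both Shh-treated knockout arrays lay there, and the SD of their floored log2 signals was 0. Of all 39 markers, 9 were more than 16-fold lower with Shh in the knockout, 18 were 4-fold to 16-fold lower, 7 were 2-fold to 4-fold lower, 4 lay within 2-fold and 1 was higher. The wild-type counts were 9, 17, 7, 5 and 1. Differences of this size were rare on the array: 16 of all 11405 tested genes (0.14%) were more than 16-fold lower in the knockout, and 9 of these were vascular markers. In wild type 17 genes (0.149%) were, again with 9 markers among them. Among the 10 genes with the lowest differences there were 7 markers in the knockout and 6 in wild type, and among the lowest 100 there were 17 and 15. Since the markers were chosen with earlier results of these data known, these counts and ranks describe the chosen genes. They are no test of vascular genes as a class.

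**Figure D2:**
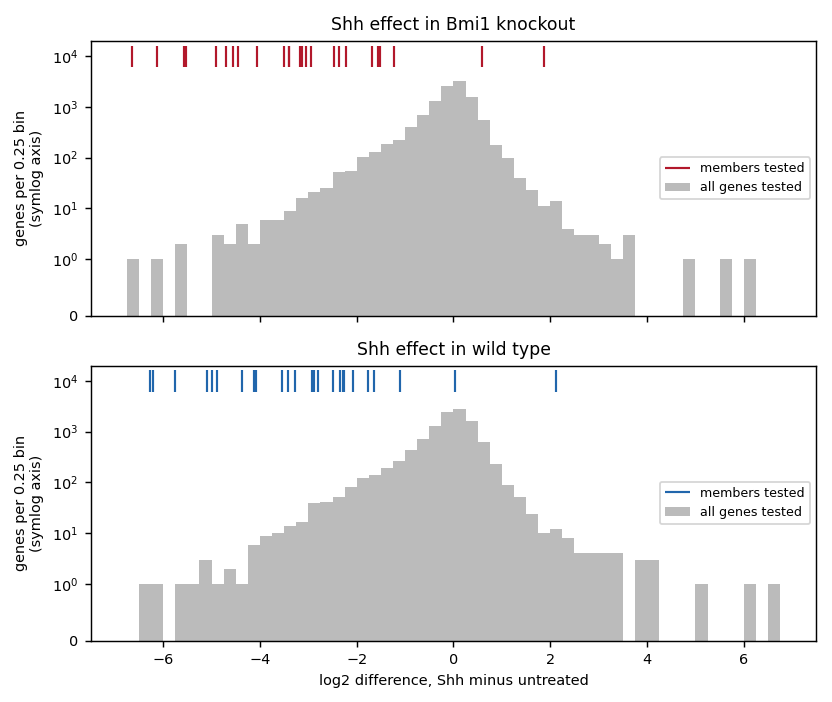
Histograms of the log2 difference (Shh-treated minus untreated) over all 11405 tested genes, grey bars in bins of 0.25 on a symlog axis, for knockout (top) and wild type (bottom), with each of the 26 tested markers as a coloured line at the top. The markers reach -6.65 in the knockout and -6.26 in wild type, in the thin left tail of the distribution, and Sox18 is the only marker called on the right.

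All 8 tested receptors fell in both genotypes, with medians over the 9 listed receptors of -3.17 in the knockout and -2.89 in wild type. Aplnr, the receptor for apelin found on sprouting and venous endothelium, had the lowest difference of any tested gene in the knockout at this floor. Aplnr read 28.5 and 83.1 on the Shh-treated knockout arrays, against 4221, 5035 and 5447 on the untreated ones. Aplnr in wild type read 64.8 and 51.8 with Shh, against 4715, 3723 and 4580.1 untreated. The groups lay far apart, and Aplnr was 100.2-fold lower with Shh in the knockout (-6.65 ± 0.36 SE, adjusted p = 6.68e-06) and 74.5-fold lower in wild type (-6.22 ± 0.36 SE, adjusted p = 6.96e-06). A second, dimmer Aplnr probe set also read lower, by log2 differences of -2.12 in the knockout and -3.23 in wild type, and with both probe sets averaged Aplnr differed by -4.38 and -4.73. The knockout value was -5.87 without replicate 8 and -7.42 without replicate 10.

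Kdr, the main signalling receptor for VEGF, was lower by less. Kdr read 47.9 and 65.7 on the Shh-treated knockout arrays, against 453, 521 and 542 on the untreated ones, and 91.5 and 52.5 on the Shh-treated wild-type arrays, against 565, 418 and 564 on the untreated ones. Its Shh-treated and untreated arrays did not overlap, and the difference was 8.99-fold lower in the knockout (-3.17 ± 0.24 SE, adjusted p = 4.45e-05) and 7.37-fold lower in wild type (-2.88 ± 0.24 SE, adjusted p = 4.93e-05). Flt1, a VEGF receptor that also acts as a decoy, lay at the floor on 3 of the 4 Shh-treated arrays. Flt1 read 6.52 and 3.29 on the Shh-treated knockout arrays, against 207, 229 and 276 on the untreated ones, and 10.7 and 49.6 on the Shh-treated wild-type arrays, against 236, 239 and 243 on the untreated ones. Flt1 was at least 11.3-fold lower in the knockout (-3.49 ± 0.29 SE, adjusted p = 6.93e-05) and at least 7.43-fold lower in wild type (-2.89 ± 0.29 SE, adjusted p = 0.000133), where the value was -2.27 without replicate 7 and -3.52 without replicate 9. Its dimmer probe sets differed by -3.188, -2.692 and -2.091 in the knockout and by -3.065, -1.979 and -2.117 in wild type. These folds therefore bound the brightest Flt1 probe set and not the gene. Tek, the angiopoietin receptor also called Tie2, followed the same course. Tek read 26.1 and 47.8 on the Shh-treated knockout arrays, against 237, 305 and 276 on the untreated ones, and 36.00 and 23.5 on the Shh-treated wild-type arrays, against 281, 275 and 284 on the untreated ones. Both Shh-treated groups lay below every untreated array, at 7.68-fold lower in the knockout (-2.94 ± 0.25 SE, adjusted p = 8.20e-05) and 9.62-fold lower in wild type (-3.27 ± 0.25 SE, adjusted p = 3.00e-05).

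The promoters of Kdr and Tek are shown as examples of tested receptors whose promoters hold a match to an ETS motif. ETS factors are known regulators of endothelial receptor genes, and any part of them in these falls was not tested. Each window runs from 250 bases before to 50 bases after the transcript start (RefSeq, GRCm38.p6; Kdr at chr5:75978406-75978705, minus strand; Tek at chr4:94739039-94739338, plus strand), and capitals mark a match, on either strand, to an ETS core (CCGGAA in Kdr, CAGGAA in Tek, both read here on the reverse strand).
Kdr: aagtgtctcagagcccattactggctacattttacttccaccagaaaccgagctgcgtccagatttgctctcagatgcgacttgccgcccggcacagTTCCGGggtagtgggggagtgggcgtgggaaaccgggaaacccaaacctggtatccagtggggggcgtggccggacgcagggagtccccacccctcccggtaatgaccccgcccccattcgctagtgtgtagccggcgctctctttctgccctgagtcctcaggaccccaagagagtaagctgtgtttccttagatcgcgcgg
Tek: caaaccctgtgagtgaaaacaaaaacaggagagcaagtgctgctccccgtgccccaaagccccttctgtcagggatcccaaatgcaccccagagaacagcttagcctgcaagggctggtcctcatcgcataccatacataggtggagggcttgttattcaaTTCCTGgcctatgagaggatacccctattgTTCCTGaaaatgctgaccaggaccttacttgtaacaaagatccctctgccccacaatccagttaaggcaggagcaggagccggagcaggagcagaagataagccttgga
The Kdr match begins 153 bases before the start, and the Tek matches begin 89 and 59 bases before it. A match to the SOX motif AACAAT (reverse strand) begins 63 bases before the Tek start and overlaps the second ETS match by 2 bases.

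The other 4 tested receptors spanned a wide range of falls. Cd93, a C-type lectin transmembrane receptor of endothelium, had the largest. Cd93 read 27.9 and 41.7 on the Shh-treated knockout arrays, against 969, 1065 and 1047 on the untreated ones, and 42.8 and 48.1 on the Shh-treated wild-type arrays, against 933, 890.0 and 999 on the untreated ones. Cd93 was 30.1-fold lower in the knockout (-4.91 ± 0.16 SE, adjusted p = 2.14e-07) and 20.7-fold lower in wild type (-4.37 ± 0.16 SE, adjusted p = 4.44e-07), with no overlap. A second Cd93 probe set differed by -5.16 in the knockout and -4.89 in wild type. Dim ones near the floor differed by -1.04, -0.24 and 0 in the knockout and by -1.06, -1.24 and -0.25 in wild type. Eng (endoglin) is a co-receptor for transforming growth factor beta ligands. Eng read 52.2 and 88.8 on the Shh-treated knockout arrays, against 599, 591 and 512 on the untreated ones, and 71.6 and 103 on the Shh-treated wild-type arrays, against 606, 583 and 612 on the untreated ones. Its groups did not overlap, and it was 8.31-fold lower in the knockout (adjusted p = 3.05e-05) and 6.99-fold lower in wild type (adjusted p = 3.21e-05). Adgrl4, an adhesion G protein-coupled receptor of endothelium, reached the floor on 3 Shh-treated arrays. Adgrl4 read 2.55 and 38.3 on the Shh-treated knockout arrays, against 347, 315 and 239 on the untreated ones, and 20.8 and 1.45 on the Shh-treated wild-type arrays, against 288, 260.2 and 193 on the untreated ones. It was at least 10.5-fold lower in the knockout (adjusted p = 4.81e-05) and at least 11.7-fold lower in wild type (adjusted p = 2.67e-05) by this probe set. A second Adgrl4 probe set of nearly equal brightness differed by only -1.83 in the knockout and -2.83 in wild type, and with a floor at the 10th percentile the fit gave -1.83 and -3.40, so these folds bound the brightest probe set and not the gene. Ramp2, the partner that turns the calcitonin receptor-like receptor into a receptor for adrenomedullin, had the smallest fold. Ramp2 read 168 and 220.0 on the Shh-treated knockout arrays, against 967, 937 and 1070.4 on the untreated ones, and 184 and 208 on the Shh-treated wild-type arrays, against 1107, 790.2 and 976 on the untreated ones. Ramp2 was 5.15-fold lower in the knockout (adjusted p = 2.83e-05) and 4.85-fold lower in wild type (adjusted p = 2.18e-05), with the 2 groups of each genotype apart. Probe sets annotated to both Ramp2 and Vps25 moved little. The dimmer of the 2 read 888 and 916 in Shh-treated against 1058, 1046 and 845 in untreated knockout cultures, which overlap, and the brighter read 1366 and 1356 against 1450.0, 1583 and 1553, which do not. Tie1, the partner of Tek, was too dim on average to be tested.

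**Figure D3:**
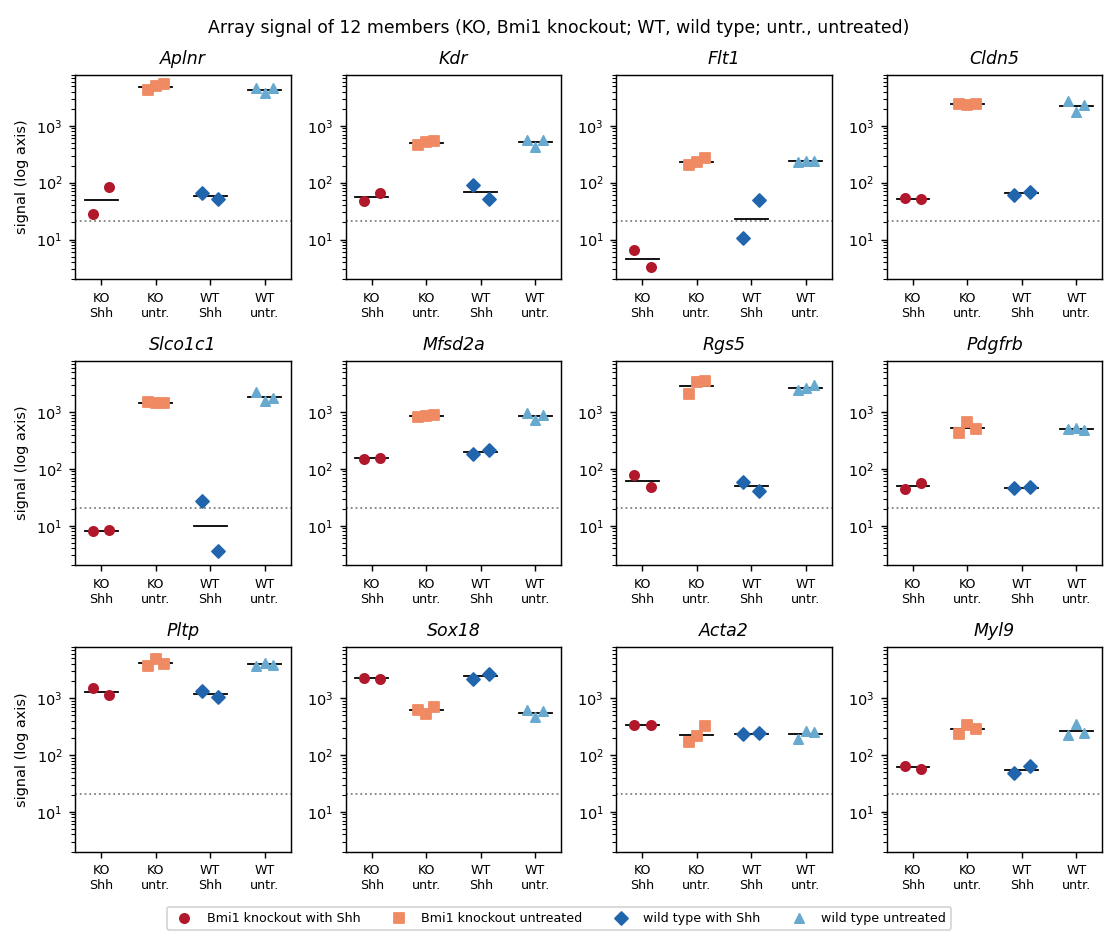
Signal (log axis) of 12 markers on each array, with knockout Shh, knockout untreated, wild-type Shh and wild-type untreated from left to right; points are arrays, horizontal bars are geometric means and the dotted line is the floor of 20.9. In 10 panels both Shh groups lie below both untreated groups, Sox18 lies above in both, and Acta2 lies slightly above in the knockout and overlaps in wild type.

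Both tested junction genes fell. Cldn5, the tight junction protein that seals brain endothelium, kept about the same low level on all 4 Shh-treated arrays. Cldn5 read 53.01 and 51.1 on the Shh-treated knockout arrays, against 2410.2, 2309 and 2469.5 on the untreated ones, and 61.8 and 69.1 on the Shh-treated wild-type arrays, against 2747, 1769.7 and 2318 on the untreated ones. Cldn5 was 46.03-fold lower in the knockout (-5.52 ± 0.16 SE, adjusted p = 1.98e-07) and 34.3-fold lower in wild type (-5.10 ± 0.16 SE, adjusted p = 2.23e-07). Esam, an endothelial adhesion molecule at the junction, fell by a smaller factor. Esam read 97.99 and 64.99 on the Shh-treated knockout arrays, against 716, 679 and 719 on the untreated ones, and 83.3 and 109 on the Shh-treated wild-type arrays, against 857, 606 and 740.5 on the untreated ones. It was 8.82-fold lower (adjusted p = 1.88e-05) and 7.64-fold lower (adjusted p = 1.66e-05), and the groups did not overlap. The adhesion molecules Cdh5 (VE-cadherin), Pecam1 (CD31) and Emcn (endomucin) were not tested. The probe set shared by Ly6c1 and Ly6c2 read 91.2 and 84.5 in Shh-treated against 349, 445 and 427 in untreated knockout cultures, and 68.7 and 7.30 in Shh-treated against 576, 412 and 382 in untreated wild-type cultures.

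The 3 tested barrier transporters all fell. Slco1c1 carries thyroid hormone into the brain and had the lowest difference of any tested gene in wild type at this floor. Slco1c1 read 7.91 and 8.41 on the Shh-treated knockout arrays, against 1510.1, 1449.7 and 1433 on the untreated ones, and 27.2 and 3.56 on the Shh-treated wild-type arrays, against 2215, 1548 and 1789 on the untreated ones. Slco1c1 lay at the floor on 3 of the 4 Shh-treated arrays and was at least 70.1-fold lower in the knockout (-6.13 ± 0.16 SE, adjusted p = 1.57e-07) and at least 76.8-fold lower in wild type (-6.26 ± 0.16 SE, adjusted p = 1.76e-07). Slc38a5, an amino acid transporter, was also at the floor on 3 Shh-treated arrays. Slc38a5 read 29.6 and 10.5 on the Shh-treated knockout arrays, against 627, 604 and 711 on the untreated ones, and 3.02 and 13.2 on the Shh-treated wild-type arrays, against 747, 611 and 656 on the untreated ones. It was at least 25.99-fold lower in the knockout (-4.70 ± 0.15 SE, adjusted p = 2.39e-07) and at least 32.01-fold lower in wild type (-5.00 ± 0.15 SE, adjusted p = 2.23e-07). Mfsd2a imports docosahexaenoic acid as lysophosphatidylcholine, and it kept a clear signal with Shh. Mfsd2a read 149 and 155 on the Shh-treated knockout arrays, against 824, 843 and 877 on the untreated ones, and 182 and 217 on the Shh-treated wild-type arrays, against 952, 712 and 870.3 on the untreated ones. Mfsd2a was 5.57-fold lower (adjusted p = 6.48e-06) and 4.22-fold lower (adjusted p = 1.23e-05). Slco1a4 and Abcb1a, an organic anion carrier and the efflux pump P-glycoprotein, were not tested.

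The transcription factors parted. Sox18, an HMG box factor of the SOXF group that acts in vessel and lymphatic development, was the marker that rose. Sox18 read 2300.0 and 2194 on the Shh-treated knockout arrays, against 628, 534 and 689.7 on the untreated ones, and 2209.7 and 2643 on the Shh-treated wild-type arrays, against 623, 459 and 599 on the untreated ones. All 4 Shh-treated arrays lay above all 6 untreated ones, and Sox18 was 3.66-fold higher in the knockout (1.87 ± 0.16 SE, adjusted p = 8.20e-05) and 4.35-fold higher in wild type (2.12 ± 0.16 SE, adjusted p = 2.81e-05). A single probe set stands for Sox18, so no second one checks it. Foxq1, a forkhead factor, went the other way. Foxq1 read 48.2 and 60.3 on the Shh-treated knockout arrays, against 147, 137 and 99.6 on the untreated ones, and 48.6 and 40.9 on the Shh-treated wild-type arrays, against 138, 144 and 134 on the untreated ones. Foxq1 was 2.34-fold lower (adjusted p = 0.0011) and 3.10-fold lower (adjusted p = 0.00018), without overlap. Sox17, the close relative of Sox18, and Erg, an ETS factor of endothelium, were below the filter and had differences of -1.66 and -1.85 in the knockout and -1.75 and -1.56 in wild type. These only bound the falls of the brightest probe sets, since Shh-treated arrays of both genes lay at the floor in each genotype. A dimmer Sox17 probe set differed by -2.48 in the knockout and -2.43 in wild type.

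All 4 tested genes among the secreted and other endothelial markers fell. Ctla2a, a cysteine protease inhibitor, fell most. Ctla2a read 3.42 and 25.2 on the Shh-treated knockout arrays, against 483, 628 and 523 on the untreated ones, and 10.1 and 26.9 on the Shh-treated wild-type arrays, against 439, 387 and 413 on the untreated ones. The probe set shared with its relative Ctla2b also read lower with Shh, at 27.5 and 46.3 against 428, 394 and 402 in the knockout. Ctla2a was at least 23.6-fold lower in the knockout (-4.56 ± 0.15 SE, adjusted p = 2.39e-07) and at least 17.4-fold lower in wild type (-4.12 ± 0.15 SE, adjusted p = 5.24e-07). Pltp, the phospholipid transfer protein, stayed well above the floor with Shh. Pltp read 1506 and 1135 on the Shh-treated knockout arrays, against 3734, 4857 and 4064 on the untreated ones, and 1313 and 1032 on the Shh-treated wild-type arrays, against 3737, 4203 and 3904 on the untreated ones. Pltp was 3.21-fold lower (adjusted p = 0.000169) and 3.39-fold lower (adjusted p = 8.89e-05). Itm2a, a type II membrane protein, also kept a high level. Itm2a read 1028 and 1049 on the Shh-treated knockout arrays, against 2900.3, 3535 and 2850.1 on the untreated ones, and 723 and 424 on the Shh-treated wild-type arrays, against 3068, 2718 and 2665 on the untreated ones. Itm2a was 2.97-fold lower in the knockout (adjusted p = 0.000654) and 5.08-fold lower in wild type (adjusted p = 5.37e-05). Egfl7, a factor that endothelium secretes into its matrix, had the smallest of these falls. Egfl7 read 255 and 206 on the Shh-treated knockout arrays, against 680.2, 604 and 695 on the untreated ones, and 256 and 276 on the Shh-treated wild-type arrays, against 640.2, 516 and 565 on the untreated ones. It was 2.87-fold lower (adjusted p = 8.52e-05) and 2.15-fold lower (adjusted p = 0.000353), and its groups did not overlap.

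The 5 tested pericyte markers fell in both genotypes, and the medians over all 8 listed were -3.27 in the knockout and -3.00 in wild type. Rgs5, a regulator of G protein signalling that marks brain pericytes, led them. Rgs5 read 78.4 and 47.8 on the Shh-treated knockout arrays, against 2105, 3328 and 3565 on the untreated ones, and 59.6 and 40.9 on the Shh-treated wild-type arrays, against 2418, 2601 and 2972 on the untreated ones. Rgs5 was 47.8-fold lower in the knockout (-5.58 ± 0.28 SE, adjusted p = 4.14e-06) and 53.7-fold lower in wild type (-5.75 ± 0.28 SE, adjusted p = 2.68e-06). Abcc9 is the sulfonylurea receptor subunit of a potassium channel whose pore, Kir6.1, is encoded by its chromosome 6 neighbour Kcnj8. Abcc9 read 43.1 and 29.99 on the Shh-treated knockout arrays, against 541, 643 and 613 on the untreated ones, and 2.74 and 5.98 on the Shh-treated wild-type arrays, against 772, 598 and 518 on the untreated ones. Abcc9 was at the floor on both Shh-treated wild-type arrays and on neither knockout one, and was 16.6-fold lower in the knockout (-4.05 ± 0.19 SE, adjusted p = 2.93e-06) and at least 29.7-fold lower in wild type (-4.89 ± 0.19 SE, adjusted p = 7.06e-07). Pdgfrb, the receptor through which pericytes are recruited, had closely similar Shh-treated signals in both genotypes. Pdgfrb read 43.5 and 56.1 on the Shh-treated knockout arrays, against 433, 658 and 501 on the untreated ones, and 45.5 and 48.4 on the Shh-treated wild-type arrays, against 507, 529.9 and 480.3 on the untreated ones. It was 10.6-fold lower in the knockout (-3.40 ± 0.17 SE, adjusted p = 4.96e-06) and 10.8-fold lower in wild type (-3.43 ± 0.17 SE, adjusted p = 3.43e-06). A second, dimmer Pdgfrb probe set differed by -1.90 and -2.41, and the average of both by -2.65 in the knockout and -2.92 in wild type. Kcnj8, below the filter, was at least 8.84-fold lower in the knockout and at least 5.96-fold lower in wild type on floored signals.

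Vtn (vitronectin) is a matrix protein that brain pericytes secrete. Vtn read 23.7 and 33.5 on the Shh-treated knockout arrays, against 499, 743 and 647 on the untreated ones, and 56.4 and 27.5 on the Shh-treated wild-type arrays, against 696, 659.9 and 641 on the untreated ones. Vtn was 22.1-fold lower (adjusted p = 1.88e-05) and 16.9-fold lower (adjusted p = 1.84e-05), or by differences of -3.76 in the knockout and -3.58 in wild type with its probe sets averaged. Higd1b, a hypoxia-inducible domain protein, was the dimmest marker to pass the filter. Higd1b read 23.7 and 13.9 on the Shh-treated knockout arrays, against 159, 239 and 195 on the untreated ones, and 9.71 and 40.4 on the Shh-treated wild-type arrays, against 122, 178 and 204 on the untreated ones. Higd1b was at least 8.76-fold lower (adjusted p = 0.000158) and at least 5.66-fold lower (adjusted p = 0.000361). The Rgs5 promoter is shown as that of the pericyte gene with the largest fall (chr1:169655251-169655550, plus strand, GRCm38.p6; same window and ETS motif CAGGAA in capitals, beginning 142 bases before the start).
Rgs5: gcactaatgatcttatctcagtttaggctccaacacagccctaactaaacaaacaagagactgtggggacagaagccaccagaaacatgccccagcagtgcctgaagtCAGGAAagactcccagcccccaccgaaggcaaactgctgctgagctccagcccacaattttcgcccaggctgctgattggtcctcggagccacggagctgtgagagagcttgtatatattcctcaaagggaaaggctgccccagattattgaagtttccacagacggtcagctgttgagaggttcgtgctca
Anpep (CD13) and Des (desmin) lay near the floor in all groups and were not tested.

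The contractile genes did not move together. Myl9, the regulatory light chain of smooth muscle myosin, fell. Myl9 read 65.1 and 57.7 on the Shh-treated knockout arrays, against 235, 337 and 289.8 on the untreated ones, and 48.5 and 63.4 on the Shh-treated wild-type arrays, against 227, 348 and 242 on the untreated ones. Myl9 was 4.63-fold lower in the knockout (-2.21 ± 0.22 SE, adjusted p = 0.000167) and 4.82-fold lower in wild type (-2.27 ± 0.22 SE, adjusted p = 9.65e-05). Acta2, smooth muscle actin, did not pass the test in either genotype. Acta2 read 342 and 339.7 on the Shh-treated knockout arrays, against 169.6, 212 and 328 on the untreated ones, and 235 and 239.6 on the Shh-treated wild-type arrays, against 188, 264 and 253 on the untreated ones. The Shh-treated arrays lay just above the untreated ones in the knockout and among them in wild type. Its difference was 0.58 ± 0.25 in the knockout (95% interval 0.02 to 1.14, adjusted p = 0.113) and 0.03 ± 0.25 in wild type (-0.53 to 0.59, adjusted p = 0.934). Without replicate 6, the highest untreated knockout array, the Acta2 difference in the knockout was 0.85 with an adjusted p of 0.0128, so whether it passed turned on 1 array. That array and replicate 1, a wild-type array, also had the highest 18S RNA control signals, 6301 and 2030. Without both of them the Acta2 difference in the knockout was again 0.85 (adjusted p = 0.00527). Replicate 1 does not enter that difference, so leaving it out as well changed only the estimate of spread. The Acta2 probe set carries the suffix that Affymetrix gives to probes matching several transcripts, as do the probe sets used for Abcc9 and Pltp, which fell. Tagln lay at the floor on all 10 arrays.

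Of the 27 markers with a promoter window, Myl9 was the only one with a strict CArG box, the binding motif of serum response factor. The box was searched as CC, then only A or T, then GG. Looser forms of it, and markers without a window, were not searched. The Myl9 promoter is shown with that box in capitals (chr2:156775214-156775513, plus strand, GRCm38.p6; the box begins 161 bases before the start).
Myl9: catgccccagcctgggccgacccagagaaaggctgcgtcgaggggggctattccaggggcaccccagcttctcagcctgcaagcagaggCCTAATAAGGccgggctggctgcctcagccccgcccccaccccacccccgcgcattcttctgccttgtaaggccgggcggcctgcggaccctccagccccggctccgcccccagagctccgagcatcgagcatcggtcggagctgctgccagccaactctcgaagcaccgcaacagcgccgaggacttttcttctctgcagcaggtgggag
A promoter was found in the RefSeq table for 27 of the 40 markers. The CArG box was present in 1 of these 27, beside 1.81% of all genes in the table (27025 genes), and the ETS motif CAGGAA in 13 of 27, beside 33.4% of all genes. CCGGAA, its variant, was found in 2 (Kdr and Adgrl4), beside 16.7%, and AACAAT in 5, beside 12.2%. All 4 motifs were searched on both strands. A match describes the sequence and does not show binding.

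**Figure D4:**
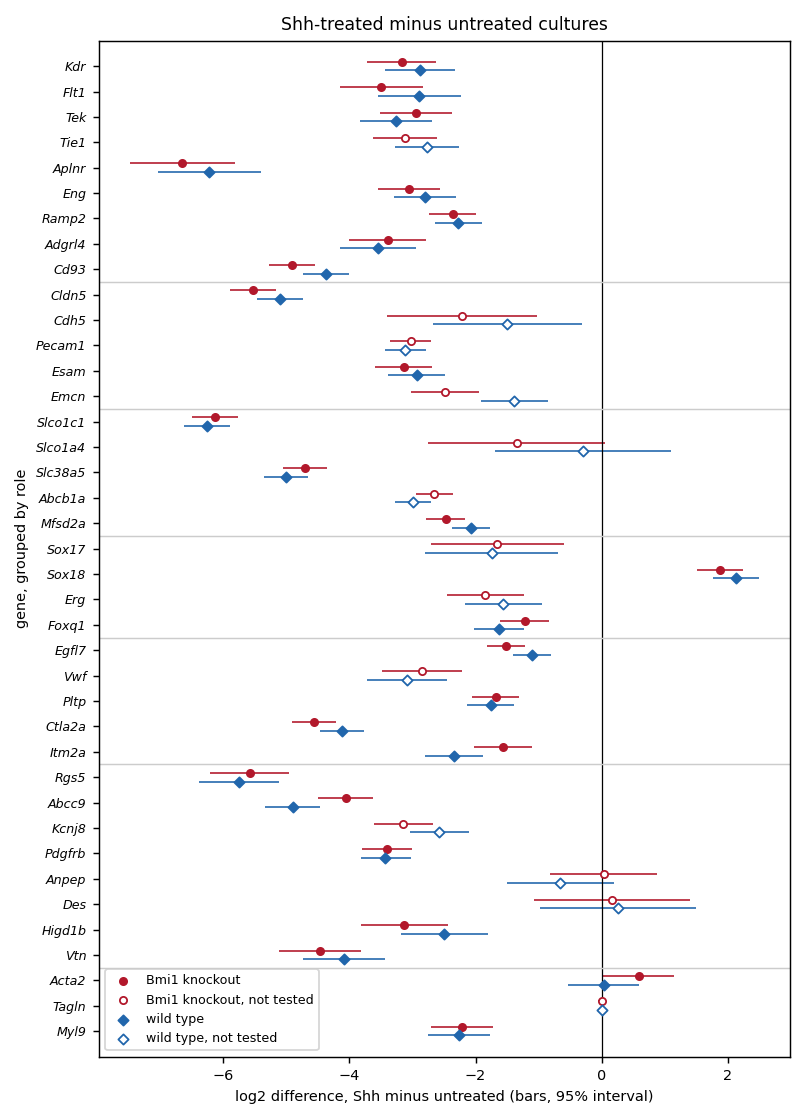
Log2 difference between Shh-treated and untreated cultures for 39 markers, by role, in knockout (red circles) and wild type (blue diamonds), with 95% intervals; open symbols were not tested. Nearly all markers lie left of 0 in both genotypes, from -6.65 for Aplnr in the knockout, and Sox18 lies right of 0 at 1.87 in the knockout and 2.12 in wild type.

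The 13 untested markers were dim on average over the 10 arrays, a mean that the Shh-treated arrays pull down. Relative to the filter, the mean log2 signal of Emcn lay at -0.0036, just outside, and that of Higd1b at 0.11, just inside. When every gene was tested without the filter, 34 of the 39 markers passed in the knockout, 33 of them lower (17.1% of all 18193 genes passed), and 33 passed in wild type, 32 of them lower (21.2%). Tie1 read 3.04 and 8.30 in Shh-treated and 171, 204 and 169.7 in untreated knockout cultures, and 2.82 and 23.4 in Shh-treated and 189.9, 111 and 160.2 in untreated wild-type cultures. Pecam1 read 19.3 and 6.19 in Shh-treated and 196, 178 and 142 in untreated knockout cultures, and 8.46 and 4.29 in Shh-treated and 183, 197 and 164 in untreated wild-type cultures. Both were at or near the floor wherever Shh was given. Without the filter, Slco1a4, Anpep, Des, Acta2 and Tagln did not pass in either genotype, and Cdh5 did not in wild type (adjusted p = 0.0804). The brightest probe set was not always matched by the others of its gene. Of 30 further probe sets of 19 markers, 23 read lower with Shh in both genotypes, 19 of them by more than 2-fold, 2 read higher in both and 5 did neither. One that did neither was a dim probe set of Rgs5, with differences of 0.01 in the knockout and -1.33 in wild type. With all probe sets of a gene averaged, Rgs5 differed by -3.68 in the knockout and -4.28 in wild type, and Abcc9 by -3.38 and -3.63, still past the threshold.

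Other vascular genes were counted from lists that hold none of the markers above, also chosen with earlier results of these data known. Each count covers the genes bright enough to be tested, and 17% of all tested genes fell and 11% rose in the knockout, and 19.8% fell and 14% rose in wild type. Of 20 further endothelial genes, 14 were tested, and 12 fell in the knockout and 13 in wild type, and none rose, with medians of -1.87 in both. Cd34, an endothelial and progenitor sialomucin, fell most. Cd34 read 31.9 and 24.2 on the Shh-treated knockout arrays, against 308, 507 and 453 on the untreated ones, and 20.4 and 38.1 on the Shh-treated wild-type arrays, against 428, 365 and 416 on the untreated ones. Of 14 tested among 16 further barrier genes, 9 fell in the knockout and 10 in wild type, and none rose, led by the metal transporter Slc39a8 (-4.47 and -4.56). Of 7 tested among 20 further mural genes, 5 fell in each genotype, among them the receptor Notch3 (-2.10 and -2.72), and of 11 tested among 16 contractile genes 4 fell in each, among them Mylk, the myosin light chain kinase (-1.69 and -2.17). Among 15 tested of 20 ligands and co-receptors, 6 fell and 3 rose in the knockout, and 7 fell and 3 rose in wild type. Apln, the ligand of Aplnr, differed by -1.95 in the knockout and -1.45 in wild type, and Pdgfb, the ligand of Pdgfrb, by -1.50 and -0.93, all past the threshold, while Pdgfa was higher by 0.52 and 0.63. The others of this list that rose were Tgfb2 (1.07 in the knockout and 0.96 in wild type), Nrp2 in the knockout (0.69) and Pgf in wild type (0.97).

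Markers of other non-neuronal cells moved as well. Of 8 microglial markers, 5 fell and 1 rose in each genotype, of 7 astrocyte markers 5 fell in each while 2 rose in the knockout and 1 in wild type, and of 6 tested fibroblast and meningeal markers 4 fell and 1 rose in each, beside the same shares of all tested genes (17% lower and 11% higher in the knockout, 19.8% lower and 14% higher in wild type). The summed microglial signal was 2177 to 2920 in Shh-treated and 5633 to 6368 in untreated knockout cultures, and 3680 to 3906 in Shh-treated and 6781 to 9881 in untreated wild-type cultures. The summed astrocyte signal was 12458 to 13833 in Shh-treated and 22721 to 25615 in untreated knockout cultures, and 9750 to 10258 in Shh-treated and 19792 to 31063 in untreated wild-type cultures. For the endothelial markers the sums were 5655 to 5971 in Shh-treated and 23909 to 26338 in untreated knockout cultures, and 5536 to 5659 in Shh-treated and 21888 to 26075 in untreated wild-type cultures. For pericytes and smooth muscle they were 669 to 703 in Shh-treated and 4391 to 6432 in untreated knockout cultures, and 525 to 537 in Shh-treated and 5159 to 5531 in untreated wild-type cultures. Most of the Shh-treated endothelial sum came from Sox18, which rose, and from Pltp and Itm2a. Their mean signals were 2247, 1321 and 1039 in Shh-treated knockout cultures and 2426, 1172 and 574 in Shh-treated wild-type cultures. The endothelial sum therefore fell by less than most single endothelial markers. The fibroblast and meningeal sums were 4430 to 4450 in Shh-treated and 4827 to 5477 in untreated knockout cultures. In wild type they overlapped, at 4919 to 5072 with Shh and 4628 to 5965 untreated. Pdgfra, which rose, made up most of the Shh-treated sums of that list. The granule precursor sums overlapped in both genotypes, at 46264 to 47827 in Shh-treated and 46233 to 48299 in untreated knockout cultures, and at 48315 to 49176 in Shh-treated and 44435 to 56540 in untreated wild-type cultures. The endothelial markers at the floor on both Shh-treated arrays were Slco1c1, Slco1a4, Pecam1, Flt1, Tie1, Vwf and Erg in the knockout and Slco1a4, Slc38a5, Adgrl4, Pecam1, Abcb1a and Vwf in wild type. The part of these other cell markers in the differences above was not tested.

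No vascular marker passed the test for genotype. In untreated cultures 0 of 26 passed (0.377% of all genes did), with Shh 0 of 26 (0.728%), for the average over treatments 0 of 26 (1.54%), and for the difference between the genotypes in their response to Shh, the interaction, 0 of 26 (0.00877%). At an unadjusted p under 0.05 there were 2, 4, 3 and 3 markers, in that order, beside 8.68%, 9.76%, 13% and 4.92% of all genes. Median differences, knockout minus wild type, were 0.06 without Shh and -0.08 with it. In untreated cultures the 26 tested markers lay between -0.32 for Slco1c1 and 0.39 for Ctla2a. The 95% interval ran from -0.23 to 0.42 for Cldn5, from -0.51 to 0.47 for Kdr and from -0.30 to 0.40 for Pdgfrb. A p above the threshold does not show that the genotypes are alike.

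Among tested markers, the largest genotype differences were seen with Shh. Itm2a, by the values above, lay higher in both Shh-treated knockout cultures than in both wild-type ones, by 0.91 ± 0.22 (95% interval 0.41 to 1.41, adjusted p = 0.138), and its interaction was 0.78 (adjusted p = 0.94). The second Itm2a probe set differed by 0.59 with Shh. Abcc9 was higher by 0.78 ± 0.21 (0.31 to 1.26, adjusted p = 0.182), with an interaction of 0.84 (adjusted p = 0.822), a lower bound since its wild-type arrays were raised to the floor. With the floor at the 10th percentile of all values in place of the 25th, Abcc9 passed with Shh (2.69, adjusted p = 0.00102) and in the interaction (2.74, adjusted p = 0.015). The other Abcc9 probe sets lay at the floor on 4 and 3 arrays and bear little on this. Emcn, just below the filter, read 23.4 and 4.73 in knockout and 42.1 and 64.3 in wild-type cultures with Shh, a difference of -1.24 ± 0.25 that did not pass without the filter (adjusted p = 0.13). Without replicate 7, Flt1 (-1.25, adjusted p = 0.0309) and Itm2a (1.29, adjusted p = 0.0236) passed with Shh, which leaves 1 wild-type array assumed to vary like the others. Among the further vascular genes with Shh, Cspg4 (NG2), which pericytes and oligodendrocyte precursors make, was the only one that passed, higher in the knockout by 1.15 ± 0.12 (adjusted p = 0.00432).

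**Figure D5:**
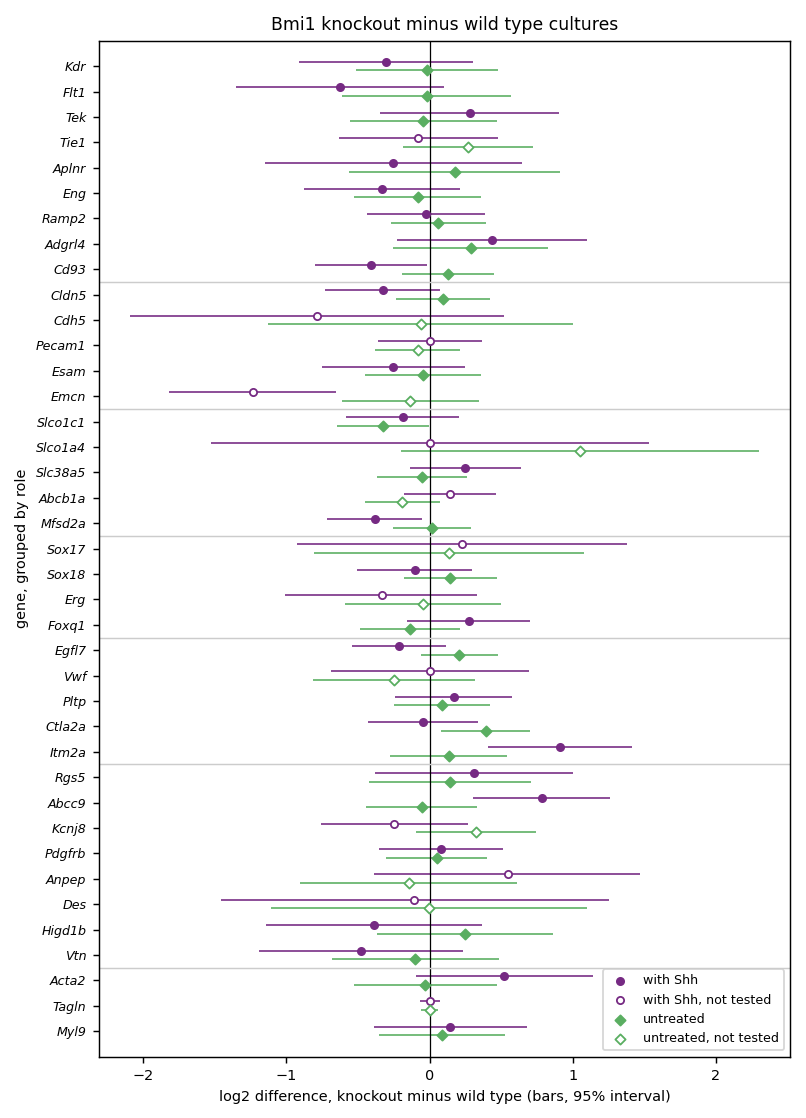
Log2 difference between knockout and wild-type cultures for 39 markers, by role, with Shh (purple circles) and untreated (green diamonds), with 95% intervals; open symbols were not tested. The intervals of most markers cover 0, Itm2a and Abcc9 lie to the right with Shh at 0.91 and 0.78, and untested Emcn lies to the left at -1.24.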

How the data were processed

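Per the labels, biotin-labelled cRNA from 10 cultures was hybridised to 1 array each, and the authors deposited array signal intensity on a linear scale. The values were made with GCOS 1.2 and MAS5, per the submitters' processing notes. Every array had a 2% trimmed mean of 500, so no further scaling was applied. The table held 45101 probe sets, no detection calls and 0 columns of other samples, and the number of arrays limits the precision.

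Control probe sets (64) were left out, and 34945 named 1 gene. Signals were floored at the 25th percentile over the table (20.9) before taking log2. The brightest probe set stood for a gene, and a gene was tested when its mean reached the probe set median, 6.25 on the log2 scale (76.1 in signal). Limma 3.58.1 in R 4.3.3 fitted 1 mean per group over all 10 arrays (6 residual and 3.11 prior degrees of freedom) for 6 comparisons. Tests were two-sided with Benjamini-Hochberg adjustment over 11405 genes and a threshold of 0.05. The procedure was tested on simulated data. Promoters came from RefSeq, and members without one there were not searched.

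No pairs are given by the labels, in which each culture has a number of its own. Consecutive numbers deviated together (correlations 0.278, 0.12 and 0.218 untreated and 0.16 with Shh). With 2 arrays per Shh-treated group, the other pairings there are fixed at -0.16, so only the sign of that value is informative. Among untreated arrays the other pairings ran from -0.265 to 0.0529. A fit with the pairs as a block was therefore run beside the main one. This pairing was set by the running numbers and is not stated in the labels. Each pair holds cultures of the same treatment. The markers, their roles and the other gene lists were chosen with earlier results of these data known. Values on every array are given for markers that passed at least 1 comparison, and for Kdr, Flt1 and Pdgfrb. Acta2, Tie1, Pecam1, Emcn, Cd34, Pdgfb, Pdgfa, Tgfb2, Nrp2, Pgf, Atoh1 and the probe sets shared by 2 genes were added after their values were seen. Further lists are given by counts, with named genes among those with the largest differences. The alternatives were other floors, filters and scalings, the mean of all probe sets, the compared groups alone, no moderation of the variance, and arrays left out.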

Additional observations from a re-analysis of the deposited data

How the results depend on the processing

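The Shh differences of single called markers kept their direction and stayed past the threshold in all 483 values per genotype from the alternatives run, with adjusted p up to 0.0133 in the knockout and 0.0046 in wild type. The number of markers called for Shh was 25 in each genotype with the replicate block, which changed no call, with quantile normalization, with the compared groups alone and without moderation of the variance. The pairs of that block lie within a treatment. It therefore cannot remove a difference in preparation between Shh-treated and untreated cultures from the Shh comparison. Leaving out 1 array at a time gave 25 to 26 in the knockout and 25 in wild type. With the filter at the 65th percentile, 13 were called in each genotype, because fewer markers were tested. For genotype, a floor at the 10th percentile called 1 marker with Shh, 1 in the interaction and 1 in the average (Abcc9 each time). Leaving out 1 array called 0 to 2 markers with Shh and 0 to 2 in the average, the 2 being Flt1 and Itm2a without replicate 7, and 0 in untreated cultures and the interaction. Dividing each array by its median moved the median of all tested genes by Shh to 0.29 in the knockout and 0.33 in wild type, and Acta2 then passed in the knockout (0.87, adjusted p = 0.0145). Falls to the floor are limited by dim signal, so their size is known only as a bound. The floor moved these sizes by more than 1.5-fold for several markers: with the floor at the 40th percentile the knockout difference was -2.36 for Flt1, -2.09 for Higd1b and -3.56 for Ctla2a, and the wild-type difference was -3.76 for Abcc9 and -2.61 for Tek, while with the floor at the 10th percentile Slco1c1 differed by -7.49 in the knockout and -7.27 in wild type.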
